A study of Rattus norvegicus with 16 samples.

Results

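The genes described here are the chains of the interstitial collagens of types I, III, V and VI and fibronectin, taken from the glomerular RNA of rats with experimental nephrotic syndrome. They were chosen by gene name: Col1a1, Col1a2, Col3a1, Col5a1, Col5a2, Col5a3, Col6a1, Col6a2, Col6a3 and Fn1. Of these 10 genes, 7 are among the 13222 genes of the deposited table, and Col1a2, Col5a3 and Col6a3 were not analysed here. All 7 had reads in each of the 16 libraries.

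Types I, III and V are fibrillar collagens, in which chains fold into a triple helix, are secreted as procollagen, are trimmed at both ends and assemble into crosslinked fibrils. Type I is the main collagen of scars, type III accompanies it in soft tissues, and type V sits inside type I fibrils and limits their width. Type VI collagen forms beaded microfilaments near basement membranes, and fibronectin is a dimeric glycoprotein that cells polymerise through integrins and that collagen fibrils are laid down on. In a healthy glomerulus the matrix is mainly basement membrane and mesangial matrix, and interstitial collagens accumulate there in glomerulosclerosis.

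The samples were glomeruli sieved on day 11 from male Wistar rats of about 175 g. Puromycin aminonucleoside (PAN), a toxin that injures podocytes, the epithelial cells that wrap the glomerular capillaries, was injected intravenously. The 4 groups had 4 libraries each. The control group is labelled healthy, the PAN group is labelled as an injury model, and the remaining groups received PAN with daily oral pioglitazone or GQ-16. Pioglitazone is a thiazolidinedione agonist of the nuclear receptor PPARγ, and GQ-16 is a partial agonist of it. The protocol names a sham vehicle by gavage without saying which groups received it, the doses are not given in the sources used here, and a sieved glomerulus is a mixture of cell types. A lower level of an RNA in such bulk samples can come from fewer cells of a type or from less RNA per cell, which cannot be told apart. The labels do not state that each library is a separate animal, so the p-values measure the spread between these libraries.

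Levels are in CPM, reads of a gene scaled to a common total of reads in the listed genes. They are not per transcript length, so they compare libraries for the same gene and not genes with each other. Library totals ran from 13351137 to 21977663 reads, and a count of 3 reads corresponded to 0.137 to 0.225 CPM, so even the lowest member value, 1.43 CPM, lay above that level. Changes are differences in mean log2(CPM + 1), tested with limma over all 13222 genes, and a gene is called when its Benjamini-Hochberg adjusted p is under 0.05. Mitochondrial reads took between 5.98% and 10.79% of the PAN libraries and between 13.93% and 39.59% of the control libraries, and over all genes the median log2 difference of PAN from control was 0.28. Median-ratio scaling, which sets the median gene level between libraries, brought it to 0.00, and the changes of the 7 genes between PAN and control are also given under that scaling.

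PAN replicate 1 stood apart from all the other libraries. In it 122 genes were at least 1 log2 unit above every other library, against 0 to 2 genes in each of the other 15 libraries. The 122 genes include Col3a1, Col5a1, Col6a1 and Col6a2. Its Col3a1 level was 48.3 times that of the next library, its Col6a1 level 24.7 times and its Col6a2 level 7.62 times. For Col5a1, Col1a1, Fn1 and Col5a2 it was 2.27, 1.96, 1.81 and 1.72 times. The next library for Col1a1 was a GQ-16 library, at 900 CPM, and the other PAN libraries held at most 268 CPM. The summed level of 10 macrophage and leukocyte markers was 1110 CPM in that library and at most 557 CPM in the other PAN libraries. For parietal epithelial markers it was 360 against at most 185 CPM, and for mesangial and smooth muscle markers 2860 against at most 2420 CPM. For podocyte markers it was 10300 against at most 9200 CPM. The sums of proximal tubule and distal nephron markers, 3090 and 497 CPM, were the lowest of the PAN group. That of glomerular endothelial markers, 6250 CPM, lay within the PAN range. Dpt, the gene of dermatopontin, a fibroblast matrix protein, was at 68.5 CPM there. Of 12 interstitial fibroblast markers, 4 are listed, namely Pdgfra, Dpt, Pi16 and Cd34, and their sum was 418 CPM in PAN replicate 1, within the 327 to 490 CPM of the PAN group. Most of that sum was Cd34, at 295 CPM, a gene that endothelial cells also express. Pdgfra, at 26.8 CPM, and Dpt were at their highest PAN level in that library and Pi16, at 27.3 CPM, at its lowest. The defining fibroblast genes Dcn and Lum were not analysed here. The part of these cells in the collagen values was not tested, and the changes of the 7 genes that involve the PAN group are given with and without this library.

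The plot of levels by library shows both the general rise of Col1a1 and the single high library.

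**Figure D1:**
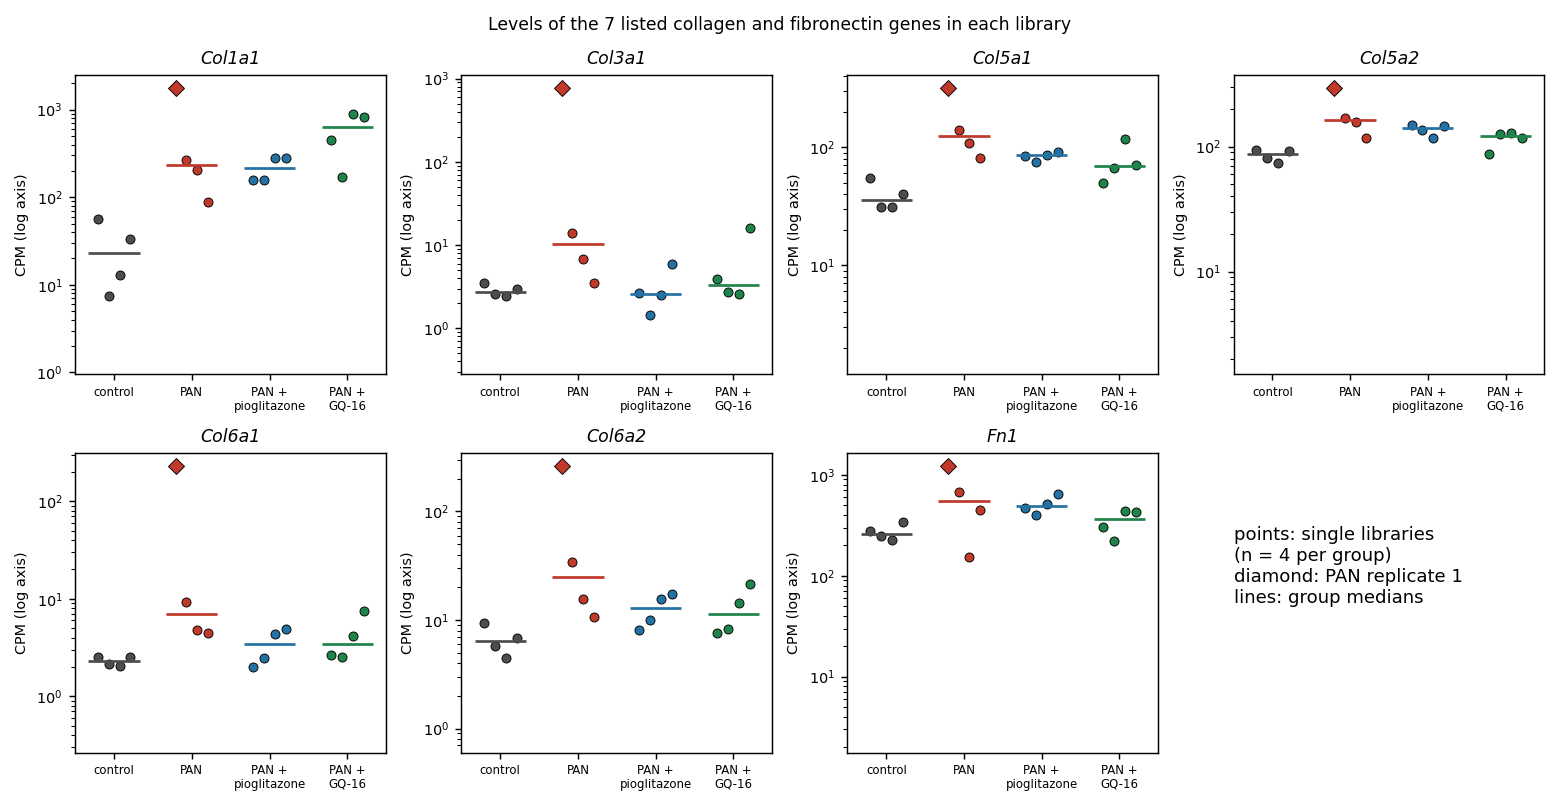
Level in CPM (vertical log axis) of each of the 7 listed genes in the 4 libraries of each group (horizontal axis), with group medians as lines and PAN replicate 1 as a diamond. Col1a1 lies above every control library in all PAN-injected libraries, while the Col3a1 and Col6a1 values of PAN replicate 1, 767 and 228 CPM, lie far above all others.

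Among the 7 genes, 4 were higher in PAN than in control and 0 were lower, where 21.7% of all genes were called higher and 0.522% lower. The 4 were Col1a1, Col5a1, Col5a2 and Col6a2. On the log2(CPM + 1) scale their rises ran from 2.05-fold for Col5a2 to 13.9-fold for Col1a1. The same 4 genes were called when PAN replicate 1 was left out, against a background of 7.77% called higher. Under median-ratio scaling 3 were called, Col1a1, Col5a1 and Col5a2, against 7.12%, and 2 with both changes, Col1a1 and Col5a1, against 4.28%. A covariate for sample titles numbered 25 or higher, which belong to 3 of the 4 PAN libraries and to no control library, left 1 call, Col5a1, against 2.88%, and totals without mitochondrial genes left 2, Col1a1 and Col5a1, against 6.58%. What the title numbers stand for is not stated. The median log2 change of the 7 genes was 2.30, beside 0.28 for all genes, and 1.06 beside 0.25 without PAN replicate 1. Levels did not overlap between PAN and control for 5 of the 7 genes, the 4 called genes and Col6a1, with or without that library. The corresponding background of genes without overlap and higher in PAN was 22.4%, and 23.9% without that library.

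Col1a1 (ENSRNOG00000003897) encodes a chain of type I collagen. Its levels in the control libraries were 56.1, 7.54, 12.8 and 33.2 CPM. In PAN they were 1760, 268, 202 and 87.3 CPM. Every PAN library was above every control library, and the values within PAN spread over a wider range than those of any other group. The log2 change was 3.79 (SE 0.773, adjusted limma p 0.00481). It was 2.95 without PAN replicate 1 (adjusted limma p 0.0114), 3.51 after median-ratio scaling (adjusted limma p 0.00951) and 2.69 with both (adjusted limma p 0.0182). The title covariate gave 2.82 and ended the call (adjusted limma p 0.107).

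The control libraries differed in Col1a1 in the same order as in their podocyte content, as far as 10 podocyte markers show it. The summed marker level was 8860, 2180, 2190 and 4260 CPM in control replicates 1 to 4, and the mitochondrial share was 13.93%, 39.59%, 32.57% and 19.17%. Per 1000 CPM of podocyte markers, Col1a1 was 3.46 to 7.79 CPM in control and 12.7 to 171 CPM in PAN (at most 29.2 CPM without replicate 1), so the groups did not overlap on that scale either. Per 1000 CPM of 11 mesangial and smooth muscle markers it was 17.6 to 63.6 CPM in control and 49.7 to 617 CPM in PAN (at most 116 CPM without replicate 1), and there the groups overlapped. Those mesangial markers were themselves higher in PAN, with a sum of 1730 to 2860 CPM against 329 to 881 CPM in control and 9 of 11 genes called higher, beside 21.7% of all genes. The count was 8 under median-ratio scaling, beside 7.12%, and 8 without PAN replicate 1, beside 7.77%. Of the 10 macrophage and leukocyte markers 7, 0 and 1 were called higher in these settings. None of the 4 listed fibroblast markers was called. Of 8 distal nephron markers 3 were lower in PAN, Umod, Slc12a3 and Calb1 (-0.85, -1.15 and -1.57), beside 0.522% of all genes, and 0 were called without PAN replicate 1. Their summed level was 497 to 1040 CPM in PAN and 909 to 1600 CPM in control. None of 8 proximal tubule markers was called, with a median log2 change of -0.27, and 0.01 without that library. The part of these cell types in the collagen changes was not tested.

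Col3a1 (ENSRNOG00000003357), the gene of the single chain of type III collagen, did not pass the test in PAN. Control libraries held 3.53, 2.58, 2.44 and 2.93 CPM. PAN libraries held 767, 13.8, 6.87 and 3.46 CPM, and the lowest of them was under the highest control value. The group mean of 198 ± 379 CPM (SD, n = 4) in PAN was 8.06 ± 5.29 CPM (SD, n = 3) without replicate 1. The log2 change of 2.71 (SE 1.10, adjusted limma p 0.0797) was 1.06 without that library (adjusted limma p 0.163), and neither value passed the threshold. Under median-ratio scaling it was 2.47 (adjusted limma p 0.18). Leaving out PAN replicate 4 instead gave 3.54 and a call (adjusted limma p 0.0316).

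The type V chains had smaller changes with smaller errors than Col1a1. Col5a1 (ENSRNOG00000008749) was at 55.0, 30.8, 31 and 40.3 CPM in control and at 316, 139, 108 and 80.9 CPM in PAN. All 4 PAN values were higher than all control values. Its log2 change was 1.85 (SE 0.335, adjusted limma p 0.00236) and remained called without PAN replicate 1 (1.46, adjusted limma p 0.00443), under median-ratio scaling (1.55, adjusted limma p 0.00686) and with the title covariate (1.56, adjusted limma p 0.0477). It was called under every alternative tried for this comparison, including leaving out any single library, with an adjusted limma p of at most 0.0477.

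Col5a2 (ENSRNOG00000003736), the partner chain, was at 93.3, 80.2, 73.7 and 92.6 CPM in control and at 293, 170, 158 and 117 CPM in PAN. These groups did not overlap. Its log2 change was 1.03 (SE 0.212, adjusted limma p 0.00493), 0.78 without PAN replicate 1 (adjusted limma p 0.0102) and 0.73 under median-ratio scaling (adjusted limma p 0.0383). With rescaling and without that library it was 0.51, which did not pass (adjusted limma p 0.0988), and with the title covariate 0.79 (adjusted limma p 0.106).

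Type V and type VI give 3 of the 7 listed genes for which RefSeq promoter entries could be matched by symbol, on assembly GRCr8, a later build than the Rnor_6.0 named in the submitters' processing notes. Windows of 300 bases, 250 before and 50 after the annotated start, were searched on both strands, by exact letters, for the CCAAT box, the GC box with the letters GGGCGG, and the TATA box with the letters TATAAA. These occur in 37.5%, 33.1% and 14.2% of 33469 promoter windows. The GC content was 72.0% for Col5a1, 59.7% for Col6a1 and 47.7% for Col5a2, beside a median of 51.7% over all windows. Col5a1 had 1 GC box, beginning 127 bases before the start, and the windows of Col5a2 and Col6a1 held none of these letters. The 250 bases before the start are shown for Col5a2, at chr9:55090152-55090401 on the minus strand, and Col6a1, at chr20:11905440-11905689 on the plus strand, because these genes differ both in composition and in how their levels spread over the libraries. Both are written 5′ to 3′ in lower case with no motif to capitalise.
Col5a2: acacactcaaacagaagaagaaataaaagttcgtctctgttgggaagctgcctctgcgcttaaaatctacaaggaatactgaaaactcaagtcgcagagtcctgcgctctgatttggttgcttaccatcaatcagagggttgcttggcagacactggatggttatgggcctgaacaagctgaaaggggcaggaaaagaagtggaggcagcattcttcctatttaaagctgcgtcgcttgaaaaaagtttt
Col6a1: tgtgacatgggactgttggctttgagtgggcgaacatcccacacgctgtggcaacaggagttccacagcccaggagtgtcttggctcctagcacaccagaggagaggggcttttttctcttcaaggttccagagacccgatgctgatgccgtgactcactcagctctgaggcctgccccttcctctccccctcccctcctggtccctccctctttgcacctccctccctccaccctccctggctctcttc
In the same assembly Col3a1 and Col5a2 are neighbours on chromosome 9 with 0 protein-coding genes between them, and so are Col6a1 and Col6a2 on chromosome 20. The neighbours Col3a1 and Col5a2 differed in how they varied: their correlation was 0.74 over 16 libraries and 0.39 without PAN replicate 1, beside 0.97 and 0.94 for Col6a1 and Col6a2.

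The type VI chains were far higher in PAN replicate 1 than in any other library. Col6a1 (ENSRNOG00000001249) was at 2.51, 2.13, 2.06 and 2.54 CPM in control and at 228, 9.20, 4.76 and 4.45 CPM in PAN. No PAN value reached down to the control values. The log2 change of 2.32 (SE 0.825, adjusted limma p 0.0537) and that of 1.05 without PAN replicate 1 (SE 0.313, adjusted limma p 0.0515) did not pass the threshold. Under median-ratio scaling it was 2.09 (adjusted limma p 0.133). It was called with a pseudocount of 0.1 (2.62, adjusted limma p 0.0437), on the deposited log2 values (2.66, adjusted limma p 0.0426), and without PAN replicate 3 or 4 (2.82 and 2.85, adjusted limma p 0.0403 and 0.0284).

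Col6a2 (ENSRNOG00000001254) was at 9.38, 5.79, 4.46 and 6.89 CPM in control and at 260, 34.1, 15.7 and 10.6 CPM in PAN. The groups did not overlap, and its log2 change of 2.30 (SE 0.679, adjusted limma p 0.0283) was called. Leaving out PAN replicate 1 gave 1.35, still called (adjusted limma p 0.0465), and under median-ratio scaling 2.03 and not called (adjusted limma p 0.0749). Leaving out control replicate 2, control replicate 3 or PAN replicate 2 also ended the call, with adjusted limma p-values of 0.0888, 0.0918 and 0.0604.

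Fibronectin did not separate PAN from control. Fn1 (ENSRNOG00000014288) was at 278, 245, 225 and 340 CPM in control. In PAN it was at 1210, 669, 154 and 444 CPM, so that PAN replicate 3 held less than any control library and the other PAN libraries held more than all of them. The log2 change was 0.85 (SE 0.435, adjusted limma p 0.145), 0.41 without PAN replicate 1 (adjusted limma p 0.447) and 0.55 under median-ratio scaling (adjusted limma p 0.402). Without PAN replicate 3 it was 1.40 and called (adjusted limma p 0.0101), so this result depended on single libraries.

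**Figure D2:**
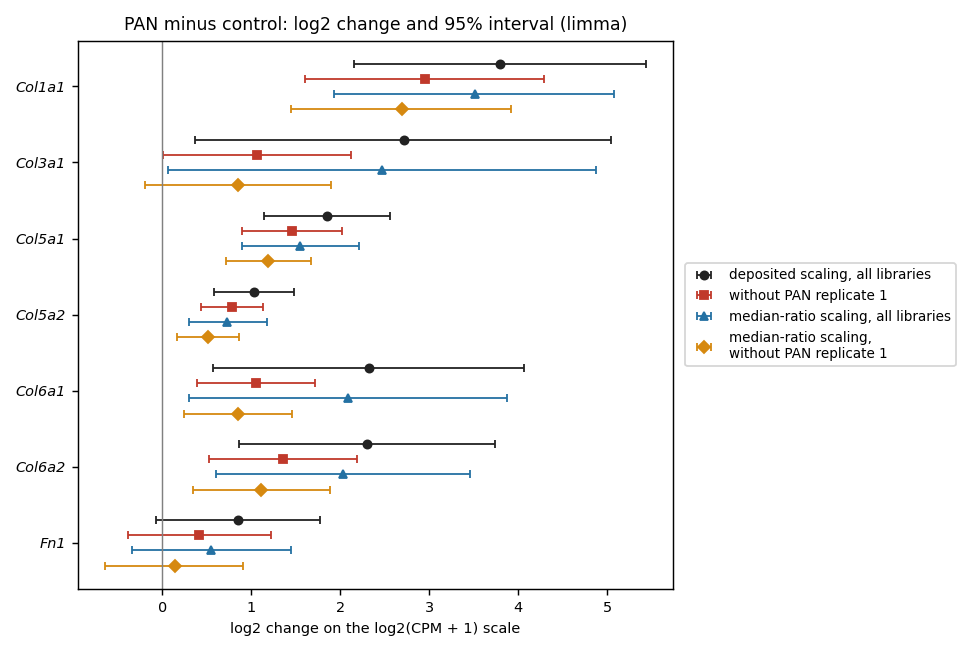
Log2 change between PAN and control with its 95% confidence interval from limma (horizontal axis) for each of the 7 genes (vertical axis), under 4 settings. The changes of Col3a1, Col6a1 and Col6a2 shrink most without PAN replicate 1, from 2.71 to 1.06, from 2.32 to 1.05 and from 2.30 to 1.35, while Col5a1 moves from 1.85 to 1.46.

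The genes were also compared with each other inside each library, as log2 ratios of CPM + 1. For 4 pairs and 6 comparisons each, 24 in all, group means were compared by an exact two-sided permutation test, whose smallest possible p with 4 against 4 libraries is 0.0286. After Benjamini-Hochberg adjustment the smallest value was 0.0686, so no ratio passed 0.05. Over 24 comparisons a ratio alone at the smallest possible p could not pass, so that outcome says little about single ratios.

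The ratio of Col3a1 to Col1a1 was -3.66, -1.25, -2.01 and -3.12 in control and -1.20, -4.18, -4.69 and -4.31 in PAN. PAN replicate 1 lay just above the highest control library, whereas the other PAN libraries lay below all of them. The group difference was -1.08 (exact permutation p 0.286), and -1.88 without PAN replicate 1. With pioglitazone the ratio was -5.46, -6.01, -6.33 and -5.33, and with GQ-16 it was -6.55, -5.52, -7.98 and -5.59. Both treated groups lay below every control and every PAN library. With pioglitazone the mean differed from PAN by -2.19 and from control by -3.27, and with GQ-16 by -2.82 and -3.90. All 4 differences had the smallest exact permutation p, 0.0286 (0.0686 adjusted). Without PAN replicate 1 the differences from PAN were -1.39 and -2.02.

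The ratio of Col5a1 to Col5a2 was -1.13 ± 0.26 in control and -0.31 ± 0.30 in PAN (SD, n = 4), without overlap. The difference of 0.82 had an exact permutation p of 0.0286 (0.0686 adjusted), and leaving out single libraries gave 0.68 to 0.94. The treated groups lay between, at -0.70 ± 0.18 for pioglitazone and -0.64 ± 0.35 for GQ-16 (SD, n = 4).

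The ratio of Fn1 to Col1a1 was 2.29, 4.85, 4.03 and 3.32 in control, above nearly all other values. In PAN it was -0.54, 1.32, -0.39 and 2.33, where the highest library just overlapped with control (difference -2.94, exact permutation p 0.0571, and -2.53 without PAN replicate 1). It was 1.55, 1.35, 0.87 and 1.20 with pioglitazone and -0.59, 0.38, -1.03 and -0.93 with GQ-16. The treated groups did not overlap with each other, with a difference of -1.79 for GQ-16 against pioglitazone (exact permutation p 0.0286, 0.0686 adjusted). The ratio of Col6a1 to Col6a2 did not separate PAN from control (difference 0.02, exact permutation p 0.886, and -0.30 without PAN replicate 1). Pioglitazone differed from control by -0.46, and GQ-16 from pioglitazone by 0.23, both at the smallest exact permutation p, 0.0286 (0.0686 adjusted), the first of them no longer so with a pseudocount of 0.1 (0.137 adjusted).

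**Figure D3:**
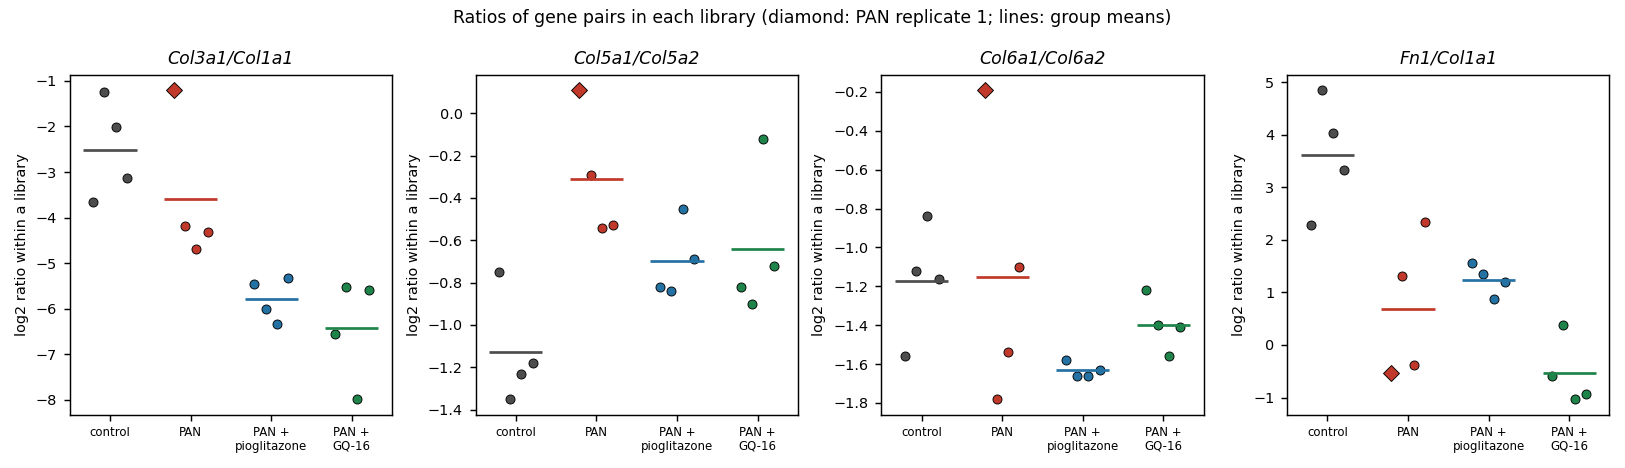
Log2 ratio of 4 pairs of genes within each library (vertical axis) in the 4 groups (horizontal axis), with group means as lines and PAN replicate 1 as a diamond. In the Col3a1 to Col1a1 panel PAN replicate 1, at -1.20, lies just above the highest control library, at -1.25, and all 8 treated libraries lie at or below -5.33.

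The genes that handle collagen after translation were read from lists of the pathway. Among 14 listed genes for modification and folding of the chains in the endoplasmic reticulum, 11 were higher in PAN and 0 lower, where 21.7% of all genes were higher, and their median log2 change was 0.79, beside 0.28 for all genes. Fkbp10, which encodes a collagen chaperone, had the largest change. Control libraries averaged 5.17 ± 0.769 CPM and PAN libraries 19.7 ± 11.2 CPM (SD, n = 4). The log2 change was 1.62 (SE 0.258, adjusted limma p 0.00116), and 1.29 without PAN replicate 1 (adjusted limma p 0.00156). P3h4 and P3h3, of the prolyl 3-hydroxylase family, rose by 1.43 and 1.42 (adjusted limma p 0.00504 and 0.00327), and by 1.18 and 1.26 without that library. Serpinh1, the gene of the collagen chaperone HSP47, rose by 0.82 (adjusted limma p 0.00658), and by 0.71 without that library. Under median-ratio scaling 6 of the 14 were called, beside 7.12% of all genes. It was 4 without PAN replicate 1, beside 7.77%, and 3 with both, beside 4.28%.

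Among 8 listed genes for procollagen cleavage and crosslinking, 7 were higher in PAN and 0 lower, again beside 21.7% of all genes, with a median log2 change of 1.74. Adamts14, a protease that removes the amino-terminal propeptide, was at 2.07, 1.33, 2.12 and 1.93 CPM in control and at 59.0, 30.2, 29.9 and 25.7 CPM in PAN. All PAN libraries were thus well above control, and its log2 change of 3.63 (SE 0.330, adjusted limma p 4.32e-05) was 3.38 without PAN replicate 1. Pcolce, an enhancer of the carboxy-terminal protease, rose by 2.50 (SE 0.507, adjusted limma p 0.00467) and Loxl2, a lysyl oxidase that crosslinks collagen, by 2.42 (SE 0.365, adjusted limma p 0.000815). Without PAN replicate 1 these changes were 2.45 and 2.03. Loxl1, Loxl3 and Bmp1, the carboxy-terminal protease itself, rose by 1.77, 1.47 and 0.90 (adjusted limma p 0.00171, 0.00486 and 0.00278), and by 1.58, 1.29 and 0.75 without that library. Lox, whose level in PAN replicate 1 was 30.5 CPM, had a log2 change of 1.70 that was called with that library (adjusted limma p 0.0364) and was 0.92 without it (adjusted limma p 0.0567). The remaining 6 genes were called without PAN replicate 1, beside 7.77% of all genes, and under median-ratio scaling, beside 7.12%. They were also called with both, beside 4.28%.

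**Figure D4:**
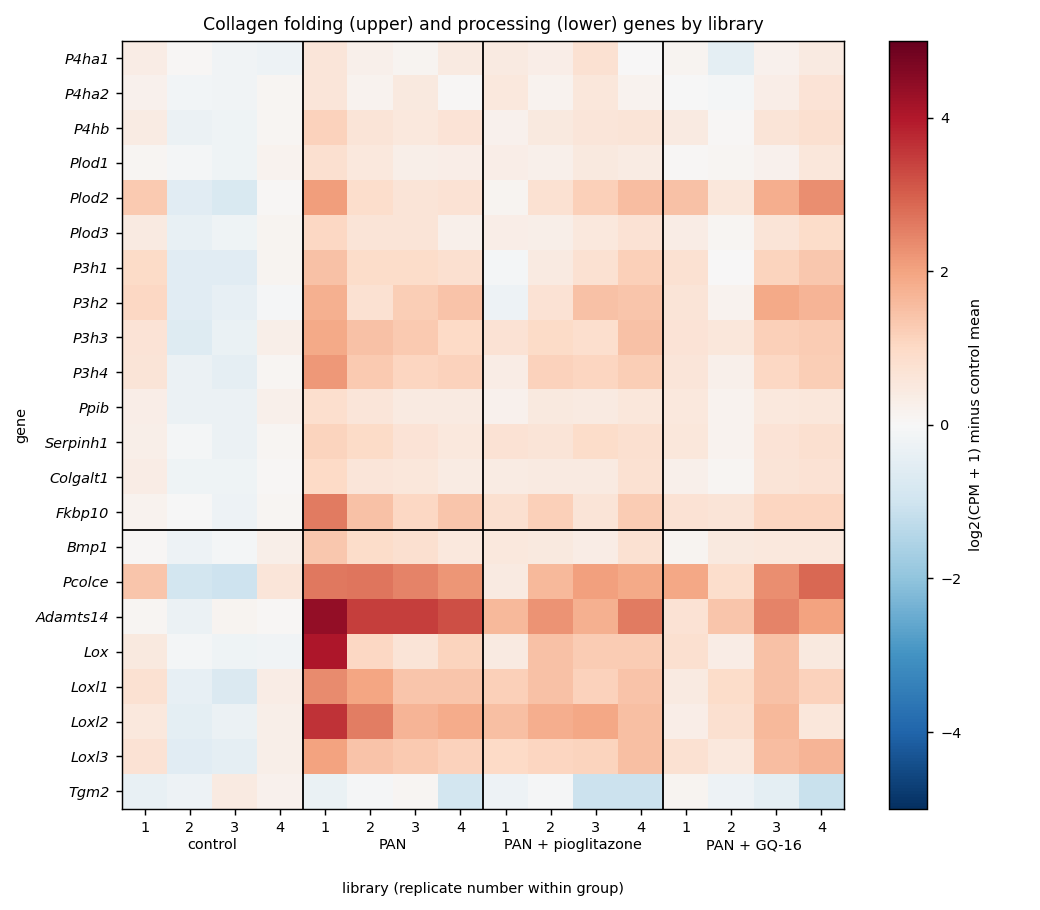
Log2(CPM + 1) minus the control mean (colour) for the listed genes of collagen folding (upper rows) and of procollagen cleavage and crosslinking (lower rows) in each library (columns, grouped by treatment). Adamts14 is the strongest row, with PAN libraries at 25.7 to 59.0 CPM against 1.33 to 2.12 CPM in control.

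Among 15 listed receptors for collagens and fibronectin, 7 were higher in PAN and 0 lower, beside 21.7% of all genes, with a median log2 change of 0.92. Mrc2, an endocytic collagen receptor, rose by 1.85 (adjusted limma p 0.0179), Ddr2, a receptor tyrosine kinase for fibrillar collagen, by 1.68 (adjusted limma p 0.0183) and Itga8, an integrin chain of mesangial cells that pairs with integrin beta-1, by 1.22 (adjusted limma p 0.0079). With PAN replicate 1 left out Mrc2 was 1.64 and no longer called (adjusted limma p 0.0633), while Ddr2 and Itga8 were 1.70 and 1.30. The number of the 15 called was then 4, beside 7.77% of all genes. Under median-ratio scaling it was 6, beside 7.12%, and 2 with both, beside 4.28%. Itga8 and Cspg4 are also among the mesangial markers, which moved with this list.

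Of 11 other listed collagen genes, which are fibrillar, fibril-associated, or of types VI, VIII, XV and XVIII, 2 were higher in PAN and 0 lower, a share below the 21.7% of all genes called higher, with a median log2 change of 0.83. Col8a1, of the short-chain type VIII collagen, averaged 4.84 ± 2.24 CPM in the control group and 38.5 ± 16.9 CPM after PAN (SD, n = 4), which differ by 2.74 on the log2 scale (SE 0.408, adjusted limma p 0.000771). Col12a1, of the fibril-associated type XII, was 141 ± 55.4 and 409 ± 93.1 CPM (SD, n = 4), a change of 1.58 (SE 0.270, adjusted limma p 0.0017). Both were called without PAN replicate 1 (2.49 and 1.44) and under median-ratio scaling (2.49 and 1.27).

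Whether treatment altered these levels was examined by setting each drug against PAN without drug. None of the 7 genes was called with pioglitazone, where 0% of all genes were called in either direction, and none with GQ-16, where 0.0151% were called lower and 0% higher. Among the 7 genes, 4 had an unadjusted limma p under 0.05 with each drug, against 3.74% of all genes with pioglitazone and 8.27% with GQ-16. For both drugs the count was 2 without PAN replicate 1, beside 2.1% and 5.18% of all genes, 2 under median-ratio scaling, beside 5.54% and 6.9%, and 0 with the title covariate, beside 5.69% and 6.56%. Levels overlapped with those of PAN for all 7 genes in both comparisons, where 2.36% and 3.47% of all genes lay below PAN without overlap.

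With pioglitazone Col1a1 was at 158, 156, 281 and 277 CPM, a mean of 218 ± 70.4 CPM (SD, n = 4), within the range of the PAN libraries. The log2 difference from PAN was -0.53 (95% interval -2.17 to 1.11, adjusted limma p 0.917) and turned to 0.32 without PAN replicate 1 (95% interval -1.03 to 1.66). Col3a1 was at 2.62, 1.43, 2.51 and 5.91 CPM, with 3 of the 4 libraries within or below the control range, and its difference of -2.72 from PAN (95% interval -5.05 to -0.38, adjusted limma p 0.916) was -1.07 without PAN replicate 1. Col6a1 and Col6a2 differed from PAN by -1.95 and -1.47, and by -0.68 and -0.52 without that library.

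The type V chains under pioglitazone were uniform, with Col5a1 at 84.0, 74.7, 86.4 and 91.0 CPM and Col5a2 at 149, 135, 118 and 147 CPM. Col5a1 differed from PAN by -0.73 (95% interval -1.45 to -0.02, adjusted limma p 0.916) and Col5a2 by -0.35. Without PAN replicate 1 these were -0.34 and -0.10. Fn1 was at 465, 399, 515 and 640 CPM, and its difference from PAN was 0.03 (95% interval -0.89 to 0.96), and 0.47 without that library.

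With GQ-16 Col1a1 was at 455, 170, 900 and 814 CPM, a mean of 585 ± 337 CPM (SD, n = 4), and 3 of these 4 libraries were above every other library except PAN replicate 1. The log2 difference from PAN was 0.69 (95% interval -0.95 to 2.33, adjusted limma p 0.863). Without PAN replicate 1 it was 1.53 (95% interval 0.19 to 2.88, adjusted limma p 0.914). In the same libraries Col3a1 was at 3.86, 2.73, 2.58 and 15.9 CPM, and the library with the most Col1a1 held the least Col3a1. The Col3a1 difference from PAN was -2.13 (95% interval -4.46 to 0.21, adjusted limma p 0.64), and -0.48 without PAN replicate 1. The summed podocyte markers of the GQ-16 libraries were 7660, 3970, 11100 and 13800 CPM. They were lowest in the library with the least Col1a1, and their part was not tested.

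Col5a1 was at 49.4, 66.6, 118 and 70.6 CPM with GQ-16 and differed from PAN by -0.94 (95% interval -1.65 to -0.23, adjusted limma p 0.457). Col5a2 was at 87.9, 125, 129 and 117 CPM, a difference of -0.61 (95% interval -1.06 to -0.16, adjusted limma p 0.447). Without PAN replicate 1 the differences were -0.55 and -0.37. Col6a1 and Col6a2 ran from 2.51 to 7.5 CPM and from 7.53 to 21.6 CPM, with differences of -1.75 and -1.51, which were -0.49 and -0.56 without that library. Fn1, at 302, 221, 440 and 427 CPM, differed from PAN by -0.54 (adjusted limma p 0.798), and by -0.10 without that library.

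Pioglitazone and GQ-16 were compared directly, at doses not given in the sources used here. None of the 7 genes was called, where 0% of all genes were, and none had an unadjusted limma p under 0.05, where 5.94% of all genes did. The largest difference was that of Col1a1, 1.22 higher with GQ-16 (95% interval -0.42 to 2.86, adjusted limma p 0.999). The narrowest interval was that of Col5a2, -0.72 to 0.18 around -0.27. For Col3a1 it ran from -1.74 to 2.93 and for Fn1 from -1.49 to 0.35, so these intervals hold differences of more than 1 log2 unit between the drugs. Per 1000 CPM of podocyte markers Col1a1 was 24.1 to 39.9 CPM in the pioglitazone libraries and 42.8 to 80.9 CPM in the GQ-16 libraries, without overlap. Per 1000 CPM of mesangial and smooth muscle markers it was 106 to 223 and 206 to 685 CPM, and these ranges overlapped. Neither marker scale was tested, and the Col1a1 levels themselves overlapped between the drugs.

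**Figure D5:**
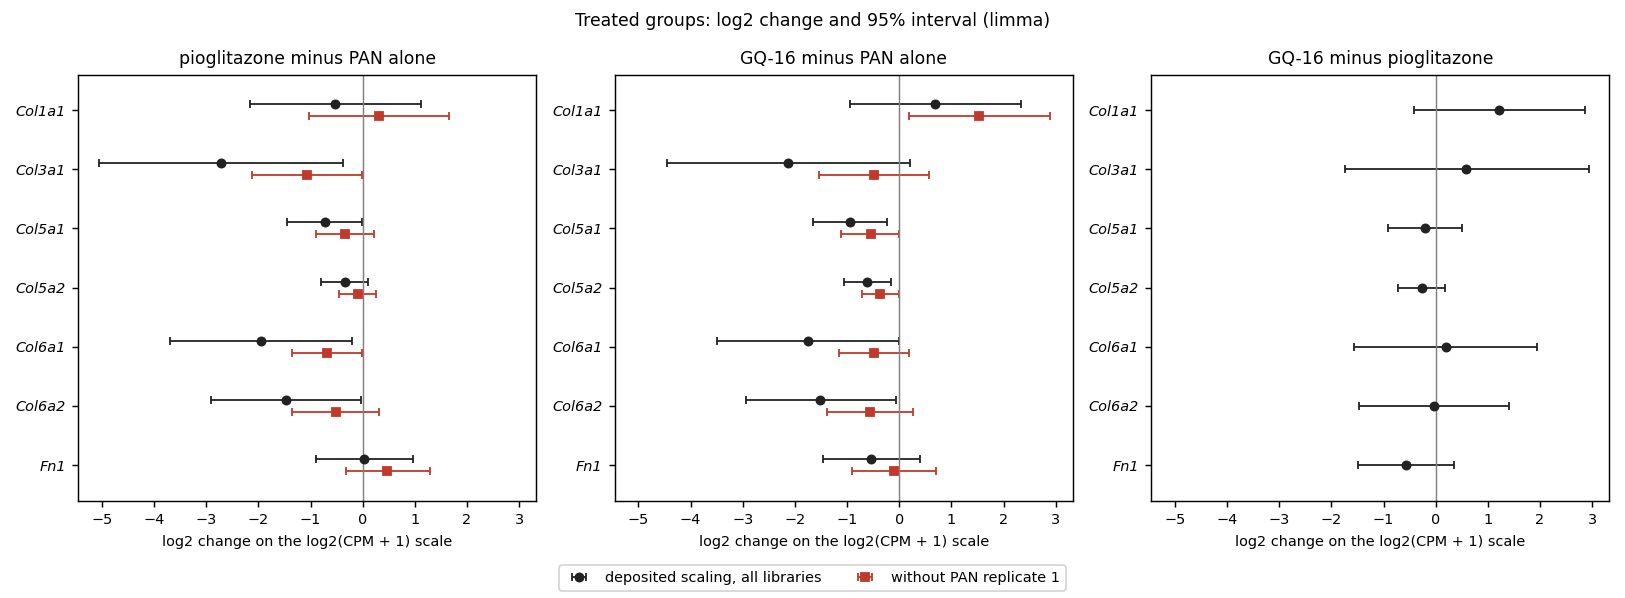
Log2 difference with its 95% confidence interval from limma (horizontal axis) for each of the 7 genes (vertical axis) in the comparisons of pioglitazone with PAN, GQ-16 with PAN and GQ-16 with pioglitazone. Without PAN replicate 1 the Col1a1 difference moves from -0.53 to 0.32 for pioglitazone and, for GQ-16, from 0.69 to 1.53.

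The treated groups were also compared with control. No group received a drug without PAN, so these comparisons cannot separate a remaining PAN change from a change added by the drug. The same control libraries stand behind these comparisons and that of PAN, so the values are given side by side. Col1a1 was the only one of the 7 genes called in either treated group. It was higher with pioglitazone by 3.26 (SE 0.773, adjusted limma p 0.0275), where 4.7% of all genes were called higher and 0.287% lower, and with GQ-16 by 4.48 (SE 0.773, adjusted limma p 0.0255), where 0.151% were. Under median-ratio scaling the changes were 3.06 and 4.32 (adjusted limma p 0.0413 and 0.0216), where 2.22% and 0.666% of all genes were called higher. Within libraries with titles numbered 15 or lower, 3 treated and 4 control, they were 3.13 and 4.24 (adjusted limma p 0.0252 and 0.0065). Of the 11 mesangial and smooth muscle markers 7 were called higher with pioglitazone, beside 4.7% of all genes, and 0 with GQ-16, beside 0.151%. Of 8 distal nephron markers 3 were lower with pioglitazone, beside 0.287%, and 0 with GQ-16. The 10 podocyte markers had median log2 changes of 1.10 and 1.52, beside 0.21 and 0.17 for all genes, with 0 called. The part of these cell types was not tested.

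Both Col1a1 calls depended on single libraries. The pioglitazone call was lost without control replicate 2 or 3 or pioglitazone replicate 2 or 4, with changes of 2.81 to 3.40 and adjusted limma p-values of 0.076 to 0.116. The GQ-16 call was lost without control replicate 2 or 3 or GQ-16 replicate 1 or 3, with changes of 4.03 to 4.51 and adjusted limma p-values of 0.053 to 0.145, and with voom on the recovered reads (adjusted limma p 0.0501). Every treated library, at 156 CPM or more, lay above the control range of 7.54 to 56.1 CPM.

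With pioglitazone, levels did not overlap with control for 4 genes, Col1a1, Col5a1, Col5a2 and Fn1, where 13.1% of all genes were higher without overlap. Col5a1 and Col5a2 differed from control by 1.12 and 0.69 (adjusted limma p 0.0633 and 0.0696), and Fn1 by 0.89 (adjusted limma p 0.188). When only the pioglitazone and control libraries were fitted, these 3 genes and Col1a1 were called, where 3.22% of all genes were called higher. Under median-ratio scaling of all libraries the Col5a1, Col5a2 and Fn1 differences were 0.90, 0.47 and 0.67, and none was called. With GQ-16 only Col1a1 was without overlap, where 4.92% of all genes were. The Col5a1 and Col5a2 differences were 0.91 and 0.42 (adjusted limma p 0.140 and 0.235) and that of Fn1 was 0.32. Col3a1, Col6a1 and Col6a2 differed from control by -0.01, 0.37 and 0.83 with pioglitazone and by 0.58, 0.56 and 0.79 with GQ-16, and none was called.

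Among the enzymes, Adamts14 averaged 11.2 ± 3.79 CPM in the pioglitazone libraries and 8.84 ± 4.80 CPM in the GQ-16 libraries (SD, n = 4). All of these lay below every PAN library and above every control library. Its difference from PAN was -1.58 with pioglitazone (adjusted limma p 0.880) and -1.98 with GQ-16 (adjusted limma p 0.0573), and neither was called. Leaving out PAN replicate 1 gave -1.32 and -1.73. Against control, pioglitazone was higher for 4 of the 8 cleavage and crosslinking genes, 3 of the 14 folding genes, 3 of the 15 receptors and 2 of the 11 other collagens, where 4.7% of all genes were called. With GQ-16 it was 0 in each list, where 0.151% of all genes were called, so the counts of the drugs cannot be set against each other. Under median-ratio scaling Adamts14 was called with GQ-16 as well (1.54, adjusted limma p 0.0395). No gene of these lists was called between either drug and PAN or between the drugs.

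Correlations of log2(CPM + 1) between the 7 genes are given as descriptions over libraries that share group, depth and scaling. Chains of the same collagen type were close, with r = 0.97 for Col6a1 and Col6a2 and 0.96 for Col5a1 and Col5a2, and 0.94 and 0.93 over the 15 libraries without PAN replicate 1. Col3a1 and Col6a1 were at 0.98 and 0.84. Col1a1 was nearest to Col5a1, at 0.81 over all libraries and 0.76 without PAN replicate 1. Over the 11 PAN-injected libraries without PAN replicate 1, its r ran from -0.27 with Col5a2 to 0.37 with Col3a1, with 0.04 for Col5a1, 0.13 for Fn1 and 0.35 for both Col6a1 and Col6a2.

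Outside the 7 genes, the 5 genes whose log2(CPM + 1) was most like that of Col1a1 over 16 libraries were Ecm1 (r = 0.945), Nkd2 (0.943), Cers5 (0.942), Pdlim1 (0.940) and Nup85 (0.936). Ecm1, which encodes a secreted matrix protein, was at 33.5 to 105 CPM in control, 176 to 405 CPM in PAN, 127 to 314 CPM after pioglitazone and 120 to 365 CPM after GQ-16, so it also lay above control in all PAN-injected libraries. Its r was 0.942 without PAN replicate 1. For Fn1 the nearest were Slc38a9 (0.850), Metap1 (0.848), Tigd2 (0.830), Rrbp1 (0.825) and Cx3cl1 (0.821). For Col6a1 they were C7 (0.947), Dpt (0.936), Ctsd (0.930), Ltbp4 (0.921) and Col15a1 (0.916). The Col6a1 values were lower without PAN replicate 1, where r was 0.892 for Dpt, 0.797 for Ctsd, 0.619 for C7, 0.480 for Ltbp4 and 0.361 for Col15a1. C7, a complement component, was at 152 CPM in PAN replicate 1 and at most 10.9 CPM elsewhere.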

How the data were processed

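Glomerular poly(A) RNA was sequenced as stranded libraries, read as pairs of 150 bp over 2 lanes, per the labels' protocols. The submitters' processing notes name HISAT2, Subread, featureCounts, limma and build Rnor_6.0, without versions or order. The deposited table holds log2 CPM values. Undoing an offset of 0.5 read per count and 1 per library total gave whole reads for 100% of values (tolerance 0.05). Every listed gene reached at least 2.04 CPM in 8 libraries, so genes of low level are not in it, and totals are reads in listed genes. Counting error covers reads, not molecules, since no molecular identifiers were used.

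CPM was recovered by undoing the log2. A model with 4 group means over 16 libraries was fitted with limma 3.58.1 in R 4.3.3 to log2(CPM + 1) with a variance trend. Adding 1 CPM understates changes of low genes. Benjamini-Hochberg adjustment was over 13222 genes, with a threshold of 0.05. The script was tested on simulated data. Ratios were tested over all 70 assignments of 8 libraries (SciPy 1.17.1). Because the table holds log2 values, this model was used, edgeR was not run, and voom on the recovered reads was an alternative. Replicate numbers only name libraries.

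The members, the pathway and marker lists and the tests were chosen with earlier results of these data known. Named were all members, up to 3 largest called rises and falls of each pathway list between PAN and control, and the 5 genes (mean of at least 5 CPM) most correlated with Col1a1, Fn1 and Col6a1. Serpinh1, Bmp1, Lox, Loxl1, Loxl3, Cspg4, Umod, Slc12a3 and Calb1 were named after their values were seen. Alternatives were a pseudocount of 0.1, the deposited log2 values, a mean of at least 10 CPM, median-ratio and quantile scaling, totals without 21 mitochondrial genes, only the groups compared, a title covariate, only low titles, voom and leaving out each library. Median-ratio scaling together with leaving out PAN replicate 1 was added after the data were seen. The promoters are from RefSeq (GRCr8).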

Additional observations from a re-analysis of the deposited data

Results flagged for a closer look

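Among 44 groups of 4 libraries (7 genes and 4 ratios in 4 groups), 2 had an end library that passed Dixon's 95% limit, which divides the gap between it and its neighbour by the range of the whole group. Chance gives about 1 in 20, or 2.2 here. Both are PAN replicate 1. Its Col6a1 level was 7.84 on the log2(CPM + 1) scale, above the other PAN libraries at 2.45 to 3.35 (gap divided by range 0.832). Its log2 ratio of Col3a1 to Col1a1 was -1.20, above the others at -4.69 to -4.18 (gap divided by range 0.855).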

How the results depend on the processing

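No paired analysis was possible because the labels give no replicate numbers or pairing between the groups. A count test (edgeR) was planned only for a table of raw counts, and it was not run on the recovered reads. The ratio of Col1a1 to Col1a2 could not be formed. The number of members called between PAN and control was 4, 2 with totals without mitochondrial genes, 1 (Col5a1) with the title covariate, 2 under median-ratio scaling without PAN replicate 1, and 3 to 6 with a library left out. Between pioglitazone and control it was 1, 4 with only these groups fitted, and 0 to 2 with a library left out. Between GQ-16 and control it was 1, 0 with voom, and 0 to 1 with a library left out. The cause of these shifts was not tested. The Col1a1 difference between pioglitazone and PAN changed sign, to 0.12 with the title covariate, to 0.37 under median-ratio scaling without PAN replicate 1, and ran from -1.12 to 0.32 with a library left out. The Fn1 difference between GQ-16 and PAN became 0.004 under median-ratio scaling without PAN replicate 1, and that between pioglitazone and PAN ran from -0.52 to 0.47 with a library left out. Between GQ-16 and pioglitazone, Col6a2 became 0.003 under median-ratio scaling and 0.003 with totals without mitochondrial genes, and with a library left out Col6a2 ran from -0.31 to 0.16 and Col6a1 from -0.075 to 0.35. With a library left out, Col3a1 between pioglitazone and control ran from -0.29 to 0.21, the Col6a1 to Col6a2 ratio from -0.30 to 0.23 between PAN and control and from -0.46 to 0.072 between GQ-16 and PAN, and the Col5a1 to Col5a2 ratio from -0.11 to 0.15 between GQ-16 and pioglitazone. No ratio passed the adjusted threshold in these settings, which with 4 libraries a group says nothing about stability.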
